A study of Mus musculus with 9 samples.

Results

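Chromatin accessibility was examined at 38 interferon response genes in alphaTC1 cells, a murine pancreatic alpha cell line. The genes are a fixed list of receptors, signal transducers, RNA sensors, antiviral effectors, the ISG15 system and antigen presentation genes, grouped by function. The list applies no threshold to a measured value, but it was drawn up with earlier results of these data known. A consensus region of the ATAC-seq experiment (an assay in which a transposase inserts into open DNA) was counted as theirs when it overlapped the gene body extended by 5 kb on both sides. This gave 96 of the 80827 consensus regions, and all 96 passed the filter on low counts. Of these, 40 were gene-end regions, meaning that they overlapped a member gene's end, taken as the stretch reaching 1000 bp out from it and 500 bp in, and 56 lay elsewhere. All 38 symbols were found in the gene table, 36 genes had a region, and Ifit3 and Ifi44 had none. A total of 6 regions belonged to 2 or more members.

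The cells were transduced for 5 days with an empty vector (the control), an shRNA against Smndc1, a Tudor domain splicing factor, or an shRNA against Atrx, a chromatin remodeler. Each group held 3 libraries that the labels call biological replicates. All groups share the cell line and the transduction. Beyond a code common to the titles of all Smndc1 libraries, the labels name no shRNA sequence, clone, dose or added interferon.

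Type I interferons signal through a receptor of IFNAR1 and IFNAR2 chains, and STAT2 acts downstream of it. STAT2 and IRF9 are parts of a complex that binds the interferon-stimulated response element (ISRE) in the promoters of antiviral genes. Double-stranded RNA in the cytosol is sensed by RIG-I (Ddx58) and MDA5 (Ifih1), which signal through MAVS to IRF3 and IRF7 and so induce interferon itself. In the endocrine pancreas the pathway is best known for its link to islet inflammation and autoimmune diabetes.

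The ISRE core was searched as GAAANNGAAA, or TTTCNNTTTC on the opposite strand, in RefSeq promoter windows (build GRCm38.p6) that run from 250 bases before to 50 after each start site. Windows were found for 31 of the 38 members. Of those 31 genes, 13 (41.9%) held the core, beside 1079 of all 27025 genes with a window (3.99%). Counted by window, 13 of 36 member windows (36.1%) and 1131 of 32851 windows overall (3.44%) held it. Overlapping cores were counted separately, and a match describes letters only. Below are the sequences before the start site of Stat2, Irf2 and B2m, which together with Eif2ak2 are the members with a core whose gene-end region had the highest level. Each core lies inside an accessible region, and the capitals mark it.

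Stat2, chr10:128270248-128270497, plus strand: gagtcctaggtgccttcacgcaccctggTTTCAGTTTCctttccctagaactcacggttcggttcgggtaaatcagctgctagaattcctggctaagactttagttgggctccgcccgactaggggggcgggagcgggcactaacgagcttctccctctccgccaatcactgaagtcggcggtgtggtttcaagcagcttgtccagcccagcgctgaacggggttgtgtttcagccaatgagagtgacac
Irf2, chr8:46739495-46739744, plus strand: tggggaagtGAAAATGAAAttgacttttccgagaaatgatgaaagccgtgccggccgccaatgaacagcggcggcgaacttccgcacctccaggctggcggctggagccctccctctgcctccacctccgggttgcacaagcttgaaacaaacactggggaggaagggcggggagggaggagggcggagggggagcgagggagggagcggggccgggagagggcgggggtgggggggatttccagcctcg
B2m, chr2:122147437-122147686, plus strand: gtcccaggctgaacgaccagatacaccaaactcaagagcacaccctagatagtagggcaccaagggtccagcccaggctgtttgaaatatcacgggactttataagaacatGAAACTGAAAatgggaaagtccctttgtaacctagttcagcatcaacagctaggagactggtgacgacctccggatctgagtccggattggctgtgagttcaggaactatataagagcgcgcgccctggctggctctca

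The next lines set Eif2ak2, whose core is also inside an accessible region, beside 4 members whose cores were in no consensus region. Each core is shown with 8 bases on either side, and capitals again mark the cores. Isg15, the ubiquitin-like modifier gene, holds 3 overlapping cores.

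Eif2ak2, inside a region, chr17, minus strand: tccgccggGAAAACGAAAcagaagag
Isg15, outside any region, chr4, minus strand: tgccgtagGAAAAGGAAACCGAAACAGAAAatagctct
Oas3, outside any region, chr5, minus strand: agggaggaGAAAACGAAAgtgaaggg
Ifih1, outside any region, chr2, minus strand: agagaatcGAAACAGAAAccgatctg
Ifit3, first of 2 cores, outside any region, chr19, plus strand: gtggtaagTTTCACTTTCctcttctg

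The same 10 letters, gaaaacgaaa, are the core of Eif2ak2, with a region over it, and of Oas3, with none. Of 19 cores in member windows, 10 lay inside a region, and these belonged to 8 of the 13 genes (61.5%): Stat2, Irf2, Eif2ak2, B2m, Ddx58, Bst2, Rsad2 and Ifit1. The windows of Isg15, Ifih1, Oas3, Oas1a and Ifit3 overlapped no region. Among the 18 members without a core, 16 (88.9%) had a region over the window. For all other genes these shares were 33.1% with the core (353 of 1066) and 39.8% without it (10332 of 25928). The shares are descriptions of where regions were called, and were not tested.

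Regions were then compared by level. Levels are TMM-normalised CPM (counts over the scaled library size in M), and levels of different genes are set side by side only as CPM per kb of region, as means of all 9 libraries. Member gene-end regions had a median of 26.9 CPM per kb (range 4.96 to 96.9), beside 33.9 over all 12711 gene-end regions. The other member regions had a median of 10.9, beside 9.15 over all regions, gene ends included. By role, the gene-end medians were 84.1 at the receptors (3 regions), 34.3 at transducers and transcription factors (8), 32.8 at RNA sensors and their adaptors (6), 28.6 at antigen presentation genes (3), 19.9 at the ISG15 system and PARP partners (7) and 15.0 at antiviral effectors (13).

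**Figure D1:**
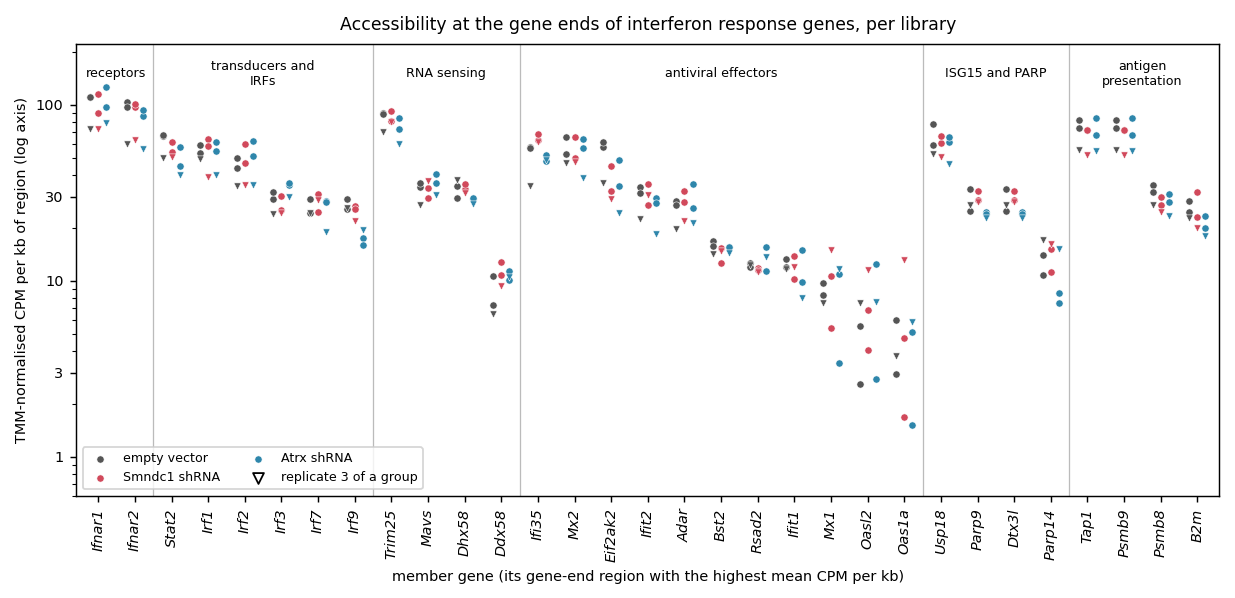
TMM-normalised CPM per kb of region (log axis) in each of the 9 libraries at the strongest gene-end region of each of the 31 members that has such a region, ordered by role; circles are replicates 1 and 2 and triangles replicate 3 of a group, coloured by group. Levels run from 96.9 CPM per kb at Ifnar1 to 4.96 at Oas1a (means of 9 libraries), and within most genes the 3 groups overlap; Tap1 and Psmb9, and Parp9 and Dtx3l, share a region.

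The receptor genes were the most accessible members. The start region of Ifnar1 (chr16:91484862-91485584) stood at 79.8, 79.8 and 52.9 CPM with empty vector, 64.5, 83.2 and 52.2 with Smndc1 shRNA and 90.5, 70.4 and 56.9 with Atrx shRNA. The groups overlapped, and replicate 3 was the lowest library in each. That of Ifnar2 (chr16:91372758-91373386) stood at 65.0, 61.1 and 37.4 with empty vector, 61.1, 63.7 and 39.6 with Smndc1 shRNA and 54.3, 58.8 and 35.2 with Atrx shRNA, again overlapping and with replicate 3 lowest. Per kb, Ifnar1 (96.9) exceeded 93.2% of all regions at RefSeq start sites, and Ifnar2 (84.1) exceeded 89.1%.

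Among the transducers, the start regions of Stat2 (shared with an end of Apof), Irf1 and Irf2 were at 54.5, 53.0 and 46.3 CPM per kb. Those of Irf3 (shared with an end of Bcl2l12), Irf7 and Irf9 (shared with an end of Rnf31) were at 29.6, 26.3 and 23.0. IRF1 activates and IRF2 mostly represses ISRE-bearing promoters, while IRF3 and IRF7 induce interferon genes. Among the RNA sensing genes, Trim25, the ubiquitin ligase that activates RIG-I, was at 79.8 CPM per kb, Mavs at 33.8 and the upper-coordinate end of Dhx58 (LGP2, shared with an end of Kat2a) at 31.8. Ddx58 was at 9.91, above 6.90% of all start regions. Ifih1 had 4 regions in its body and none at an end.

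The end regions of the antiviral effectors ran from 4.96 to 54.3 CPM per kb. Ifi35 (54.3 CPM per kb), Mx2 (54.1) and Eif2ak2 (the RNA-activated kinase PKR, 40.9) had end regions above the median of all gene-end regions. Ifit2 (28.5) and Adar (an RNA-editing deaminase, 26.6) lay below it. Bst2, Rsad2, Ifit1, Mx1, Oasl2 and Oas1a had 15.0, 12.4, 11.8, 9.15, 6.75 and 4.96. Oas1a had 1.48, 2.98 and 1.88 CPM with empty vector and the lowest end level of any member. No end region was found at Oas2, Oas3 or Oasl1, members of the oligoadenylate synthetase family that makes the activator of RNase L. Mx1 and Mx2 are annotated as transcribed pseudogenes in the gene table.

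In the ISG15 system, Isg15 itself had no region at either end, and its strongest region (chr4:156197073-156198283, 50.7 CPM) is also the promoter of the neighbouring Agrn. Usp18, which removes ISG15 from proteins and restrains the receptor, had 59.8 CPM per kb at its lower-coordinate end, 41.0 at its upper-coordinate end and 6 regions in all. Parp9 and Dtx3l, partner genes that meet head to head, shared a region of 27.2 CPM per kb, and the strongest end region of Parp14 had 12.8. Among the antigen presentation genes, the shared start region of Tap1 (a peptide transporter) and Psmb9 (an immunoproteasome subunit) had 67.9, Psmb8 28.6 and B2m, the light chain of MHC class I, 23.5.

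**Figure D2:**
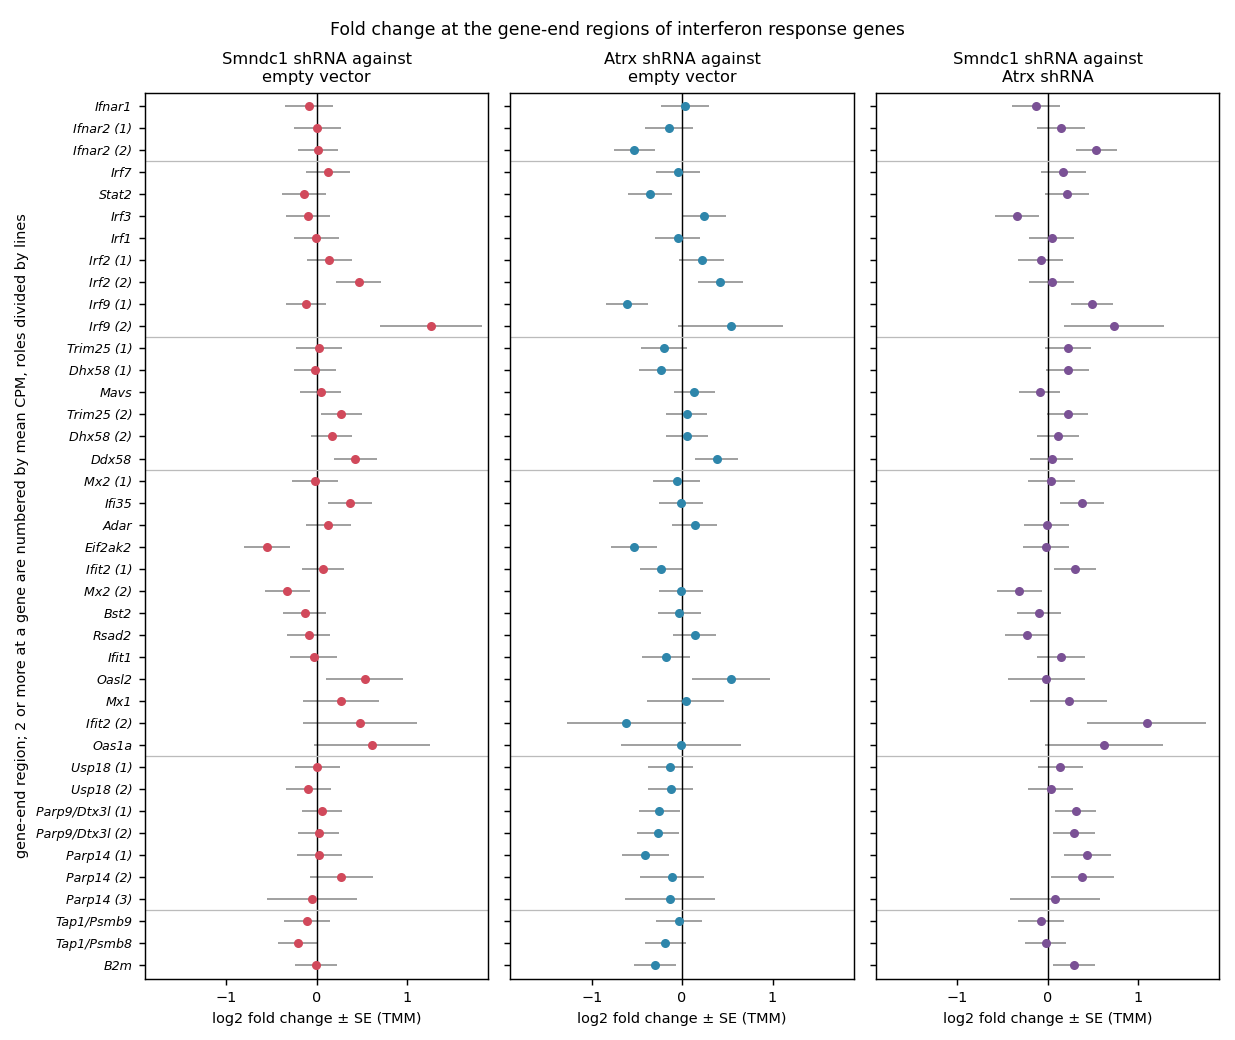
Log2 fold change (x axis, with its standard error as a whisker, TMM fit) of all 40 member gene-end regions in the 3 comparisons, ordered by role. Points run from -0.55 to 1.27 for Smndc1 shRNA, from -0.62 to 0.54 for Atrx shRNA, and from -0.34 to 1.09 between the shRNAs, and none passed the test.

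With Smndc1 shRNA, no gene-end region of the list differed from empty vector past the threshold in either fit. All tests are edgeR quasi-likelihood tests over 80345 regions, with a call at a Benjamini-Hochberg adjusted p under 0.05, fitted with TMM factors and, as an alternative, with trended offsets that remove differences in contrast between libraries. By the TMM fit, 0 of 96 member regions were called, beside 0.156% of all regions, and 11 members (11.5%) had an unadjusted p under 0.05, beside 8.09%. DESeq2 also called 0 members, beside 20 of all 80827 regions. It gave 10 of the 96 members an unadjusted p under 0.05, beside 5528 of all 80827 regions. The smallest TMM adjusted p of a member was 0.06996. With trended offsets 2 members (2.08%) were called, beside 1.11% of all regions. All 3 Smndc1 libraries were above all 3 control libraries at 9 members (9.38%, background 5.76%) and below them at 6 (6.25%, background 7.03%).

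The median log2 fold change was 0.02 at the 40 gene-end and 0.09 at the 56 other member regions, beside -0.01 and 0.03 over all gene-end and other regions tested. The background's other regions lie at no protein-coding gene's end, while some other member regions lie at ends of genes outside the list. Under trended offsets the members' medians were 0.09 and 0.10, beside 0.04 and -0.003 overall. By role, the gene-end medians were 0.06 at transducers, 0.11 at RNA sensors, 0.07 at effectors, 0.02 at the ISG15 and PARP group, 0.01 at receptors and -0.10 at antigen presentation genes. None of these groups held a called region.

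A region inside Usp18 (chr6:121248672-121249172), centred 3.02 kb from the lower-coordinate end of the gene, gave the lowest p of the list in the TMM fit. Its level was 11.5, 17.0 and 9.54 CPM with empty vector, 5.88, 6.61 and 5.92 with Smndc1 shRNA and 10.4, 9.35 and 11.8 with Atrx shRNA. Every Smndc1 library was below every other library, and the other groups overlapped. It fell by 0.98 on the log2 scale with trended offsets (SE 0.27, edgeR adjusted p = 0.0379). The TMM fit gave -1.05 (SE 0.27, edgeR adjusted p = 0.06996), which missed the threshold. Against Atrx shRNA the TMM value was -0.78 (SE 0.27, edgeR adjusted p = 0.480). With trended offsets the call was lost on leaving out empty vector replicate 1 or 2, any Smndc1 library, or replicate 2 of Atrx shRNA (adjusted p 0.0530 to 0.467). At the ends of Usp18 the levels overlapped: 50.5, 38.2 and 33.9 CPM at the lower-coordinate end with empty vector and 39.2, 43.2 and 32.8 with Smndc1 shRNA, a log2 difference of -0.09 (SE 0.25).

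The second region called with trended offsets lies in the body of Irf2 (chr8:46740959-46741729), centred 1.60 kb from the start site. It stood at 37.0, 41.2 and 22.5 CPM with empty vector, 46.9, 63.9 and 33.5 with Smndc1 shRNA and 51.7, 37.0 and 25.1 with Atrx shRNA. On this scale the groups overlapped. After trended scaling the values were 33.1, 37.0 and 26.9 with empty vector and 47.6, 55.5 and 40.3 with Smndc1 shRNA, which did not overlap. It rose by 0.56 with trended offsets (SE 0.14, edgeR adjusted p = 0.0150), and the TMM fit gave 0.51 (SE 0.26, edgeR adjusted p = 0.634). The trended call was lost on leaving out empty vector replicate 1 or 3, or Smndc1 replicate 1 or 2 (adjusted p 0.0690 to 0.188). The adjacent end region of Irf2 (chr8:46740045-46740690) had 22.8, 26.3 and 11.7 CPM with empty vector and 23.2, 36.8 and 24.5 with Smndc1 shRNA. Its TMM difference was 0.47 (SE 0.25, edgeR adjusted p = 0.650), and trended offsets gave 0.54 (SE 0.17, edgeR adjusted p = 0.0916). With the replicate number added as a term to the trended fit it was 0.55 and passed (edgeR adjusted p = 0.0231). In the TMM fit the region over the start site and its ISRE core differed by 0.14.

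**Figure D3:**
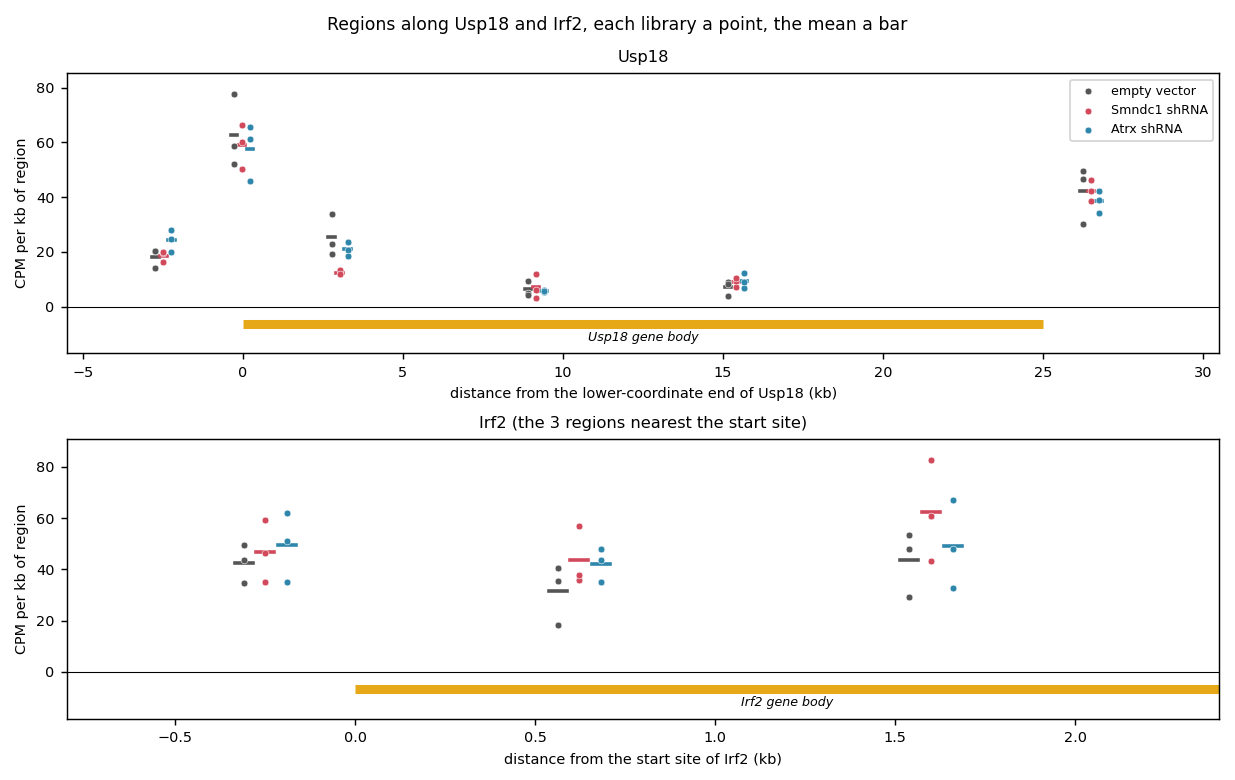
CPM per kb of region (y axis) against the distance of the region's centre from the lower-coordinate end of Usp18 or the start site of Irf2 (x axis, kb); points are libraries and bars group means. The Smndc1 libraries lie below all others at the Usp18 region 3.02 kb into the gene, while at the 3 Irf2 regions, centred at -0.25, 0.62 and 1.60 kb, the groups overlap on this scale.

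The remaining named regions missed the threshold in both fits. A region 1597 bp upstream of Stat2 (chr10:128268401-128268901), near an end of Apof, had 11.4, 11.02 and 9.23 CPM with empty vector, 5.44, 7.12 and 3.89 with Smndc1 shRNA and 7.87, 11.4 and 8.43 with Atrx shRNA. All Smndc1 libraries were lower than the others there, with a difference of -0.94 (SE 0.28, edgeR adjusted p = 0.188). The start region of Stat2 differed by -0.14. A region in Dhx58 (chr11:100703037-100703537) had 7.99, 8.68 and 10.6 CPM with empty vector and 11.9, 12.9 and 21.0 with Smndc1 shRNA, which do not overlap. The difference was 0.74 (SE 0.24, edgeR adjusted p = 0.264).

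At a region shared by the flank of Oas2 and the body of Oas3 (chr5:120754044-120754544), the levels were 3.55, 1.94 and 3.29 CPM with empty vector and 6.91, 4.24 and 8.96 with Smndc1 shRNA. The groups did not overlap, and the difference was 1.20 (SE 0.43, edgeR adjusted p = 0.343). The start region of Ifi35 had 39.4, 39.0 and 23.6 CPM with empty vector and 43.1, 46.6 and 42.1 with Smndc1 shRNA, a difference of 0.37 (SE 0.24, edgeR adjusted p = 0.758). Downstream of the same gene, inside Vat1 (chr11:101462522-101463084), the order was the opposite, at 28.9, 27.4 and 23.1 CPM against 15.4, 17.3 and 17.8. That region was chosen after its values were seen and differed by -0.65 (SE 0.23, edgeR adjusted p = 0.298).

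At the start of Eif2ak2 (chr17:78882183-78882894, also an end of Gm26637) the levels were 40.9, 43.8 and 25.6 CPM with empty vector, 31.9, 22.9 and 20.6 with Smndc1 shRNA and 34.4, 24.6 and 17.3 with Atrx shRNA. The shRNA groups overlapped the control group only through its low replicate 3. The differences were -0.55 (SE 0.25, edgeR adjusted p = 0.552) and -0.53 (SE 0.25, edgeR adjusted p = 0.845), both against the same control libraries. The start of Ddx58 had 13.2, 8.94 and 7.98 CPM with empty vector, 13.2, 15.8 and 11.5 with Smndc1 shRNA and 12.4, 13.9 and 13.0 with Atrx shRNA. The differences were 0.43 and 0.38, with no call.

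The largest gene-end value came from 1 library. A weak region upstream of Irf9 (chr14:55602643-55603143) had 1.33, 2.46 and 2.03 CPM with empty vector and 2.06, 2.202 and 9.98 with Smndc1 shRNA, a difference of 1.27 (SE 0.56, edgeR adjusted p = 0.530). Without replicate 3 of every group it was 0.15 with TMM factors, and with trended offsets it went from 0.99 to -0.13. The weaker end region of Mx2, the Tap1 and Psmb8 region and the start of Stat2 gave -0.32, -0.21 and -0.14, the next lowest of the gene-end regions named for this comparison after Eif2ak2.

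The 9 members at which all Smndc1 libraries exceeded all control libraries were the Ifi35 start region and 8 regions away from gene ends: those named at Dhx58 and at Oas2 and Oas3, 2 in Oasl1, and 1 each at Irf2, Mx2, Ddx58 and Psmb8. At the Psmb8 region, 1514 bp downstream of this immunoproteasome gene (chr17:34202968-34203468), the levels were 5.18, 6.22 and 6.10 CPM with empty vector, 7.05, 9.66 and 11.5 with Smndc1 shRNA and 6.74, 7.06 and 9.40 with Atrx shRNA. Both shRNA groups lay above the same 3 control libraries there, with differences of 0.68 (SE 0.29, edgeR adjusted p = 0.502) and 0.41 (SE 0.30, edgeR adjusted p = 0.946). The 6 members at which the Smndc1 libraries were all lower were the regions named at Usp18 and Stat2, the start of Rsad2, and regions at Irf1, Ddx58 and downstream of Ifi35. The Ddx58 region (chr4:40218301-40218891), in the body of the RIG-I gene, had 8.44, 10.8 and 12.7 CPM with empty vector, 4.41, 6.10 and 7.61 with Smndc1 shRNA and 7.54, 7.82 and 6.48 with Atrx shRNA. Its difference with Smndc1 shRNA was -0.82 (SE 0.29, edgeR adjusted p = 0.319), while the start region of the same gene gave 0.43. Of these 15 regions, 0 passed the test with TMM factors and the Usp18 region passed with trended offsets.

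**Figure D4:**
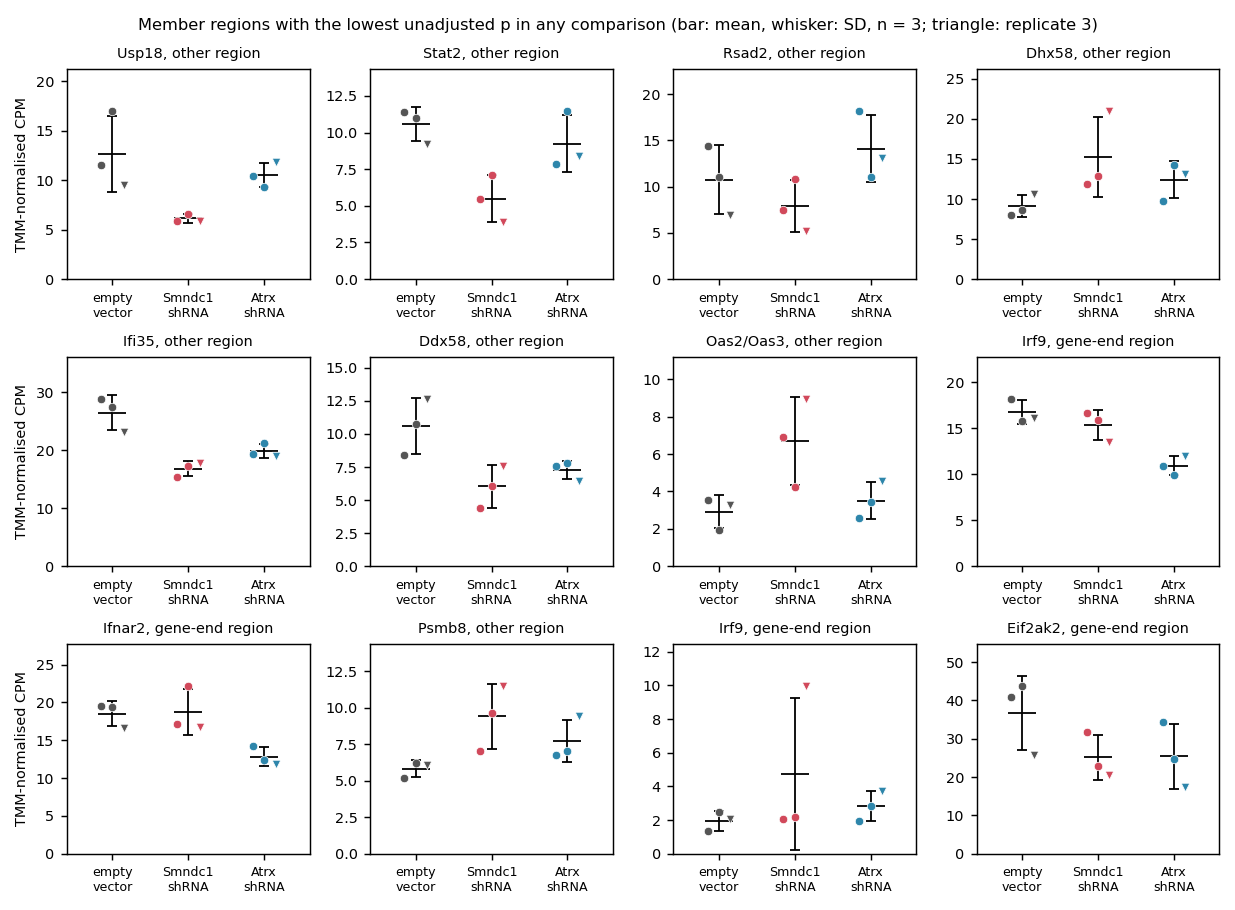
TMM-normalised CPM (y axis, from 0) of the 12 member regions with the lowest unadjusted p in any of the 3 comparisons; points are libraries (triangles for replicate 3), bars group means and whiskers SD (n = 3). Smndc1 libraries lie below all control libraries at Usp18, Stat2, Ifi35 and Ddx58, and above them at Dhx58, Oas2/Oas3 and Psmb8. Atrx libraries lie below all control libraries at Irf9 (start), Ifnar2 (end), Ddx58 and Ifi35, and above them at Psmb8.

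With Atrx shRNA, 0 of 96 member regions were called with TMM factors (background 0.0%) and 0 with trended offsets (background 0.253%). DESeq2 called 0 of all 80827 regions. An unadjusted p under 0.05 was found at 4 members in the edgeR TMM fit (4.17%, background 5.75%). In DESeq2 it was found at 3 of the 96 members, beside 3835 of all 80827 regions. The smallest TMM adjusted p was 0.728. The Atrx libraries were all above the control libraries at 4 members (4.17%, background 4.82%) and all below at 7 (7.29%, background 5.65%). The 4 higher regions were at Irf2, Mx2, Oasl1 and Psmb8, all away from gene ends, and the 7 lower ones at Irf9, Ifnar2, Parp9 and Dtx3l (gene ends), Mx1, Ddx58, Ifi35 and Psmb8. The member medians were -0.05 at gene ends and -0.01 elsewhere, beside -0.02 and 0.01 over all regions. By role the gene-end medians were -0.14 at receptors, 0.09 at transducers, 0.05 at RNA sensors, -0.01 at effectors, -0.13 at the ISG15 and PARP group and -0.18 at antigen presentation genes.

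At the start of Irf9 (chr14:55603770-55604391), the DNA-binding partner of STAT2, the levels were 18.2, 15.8 and 16.1 CPM with empty vector, 16.6, 15.9 and 13.5 with Smndc1 shRNA and 10.9, 9.92 and 12.0 with Atrx shRNA. The Atrx libraries were below all others. The difference from empty vector was -0.61 (SE 0.23, unadjusted p = 0.0100, edgeR adjusted p = 0.728) and Smndc1 shRNA against Atrx shRNA gave 0.49 (SE 0.23, edgeR adjusted p = 0.889). The region beyond the finish of Ifnar2 (chr16:91405996-91406641), which is also an end of Il10rb, showed the same order. It had 19.5, 19.4 and 16.6 CPM with empty vector, 17.2, 22.2 and 16.7 with Smndc1 shRNA and 14.3, 12.4 and 11.8 with Atrx shRNA. The difference from empty vector was -0.53 (SE 0.23, edgeR adjusted p = 0.808), and the start region of Ifnar2 differed by -0.14.

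All 7 gene-end regions of the ISG15 and PARP group had a fold change below 0 with Atrx shRNA, from -0.41 at the upper-coordinate end of Parp14 to -0.11, also under trended offsets, and 0 of the 7 were called. Of all 40 member gene-end regions 27 were below 0 in the TMM fit, beside 6727 of all 12704 gene-end regions tested. The shares above 0 were 32.5% and 47.0%, and 37.5% and 49.3% with trended offsets. These shares were not tested. Parp14 encodes a mono-ADP-ribosyltransferase, and its region (chr16:35870563-35871428) had 12.1, 9.33 and 14.7 CPM with empty vector and 7.38, 6.49 and 13.1 with Atrx shRNA, which overlap (edgeR adjusted p = 0.934). The end region shared by Parp9 and Dtx3l had 19.7, 26.2 and 21.1 against 19.4, 18.9 and 17.99 CPM, with every Atrx library lower. Neighbouring ends on 1 stretch of chromosome 16 supply 5 of the 7 regions, so they are not separate observations.

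The highest named gene-end values with Atrx shRNA were 0.42 at the second end region of Irf2, 0.38 at Ddx58, 0.54 at Oasl2 and 0.24 at Irf3. That of Oasl2 rests on replicate 2 of Atrx shRNA (2.09, 9.35 and 5.67 CPM against 4.14, 1.94 and 5.63 with empty vector) and was -0.01 without it. A weak region in the body of Irf2 (chr8:46760750-46761250) had 1.04, 1.30 and 1.72 CPM with empty vector and 2.09, 4.01 and 4.22 with Atrx shRNA, which do not overlap, but only 7 to 26 counts in a library (difference 1.33, SE 0.63, edgeR adjusted p = 0.847). The region inside Ddx58 (chr4:40218301-40218891) and that downstream of Ifi35 gave -0.54 and -0.42, and the Dhx58 body region 0.44, with no call.

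Compared directly, the shRNA groups differed at 0 of 96 member regions in the TMM fit (background 0.0759%), at 0 with trended offsets (background 0.564%) and at 0 in DESeq2 (background 0.0186%). In the edgeR TMM fit 6 members had an unadjusted p under 0.05 (6.25%, background 5.40%). In DESeq2 5 of the 96 members did, beside 3507 of all 80827 regions. The smallest TMM adjusted p was 0.346. Smndc1 libraries were all above Atrx libraries at 6 members (6.25%, background 5.04%) and all below at 6 (6.25%, background 5.15%). The median difference was 0.14 at gene ends and 0.13 elsewhere, beside -0.003 and 0.002 over all tested regions. The gene-end median was 0.05 without Atrx replicate 3, 0.22 without Atrx replicate 1 and 0.03 without replicate 3 of every group, and the other median was 0.03 without Smndc1 replicate 2. Of the 40 gene-end regions 28 were above 0 (70.0%), beside 49.4% of all tested gene-end regions. With trended offsets these shares were 75.0% and 55.6%. The 28 included all 7 of the ISG15 and PARP group (median 0.29), most of which are neighbours and not separate observations. The shares were not tested.

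The lowest p in this comparison was at a region downstream of Rsad2 (chr12:26437843-26438459), the gene of the antiviral enzyme viperin. The levels were 7.50, 10.8 and 5.24 CPM with Smndc1 shRNA, 18.1, 11.1 and 13.1 with Atrx shRNA and 14.4, 11.02 and 6.88 with empty vector. The shRNA groups did not overlap, by a narrow gap, and each overlapped the control group. The difference was -0.85 (SE 0.27, edgeR adjusted p = 0.346). The start region of Rsad2, with its ISRE core, had 10.7, 10.5 and 10.1 against 10.3, 14.1 and 12.5 CPM, a difference of -0.23. The other named values included 0.44 at Parp14 and 1.09 at the finish of Ifit2 (3.82, 4.07 and 2.71 against 0.32, 1.53 and 3.08 CPM). A region downstream of Psmb8, also an end of Tap2, gave 0.47. Irf3 gave -0.34, the weaker end of Mx2 -0.31 and Ifnar1 -0.12. None of these regions was called.

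Whether a promoter held the ISRE core was also set beside the fold changes, as a description. The 8 start regions with a core had median log2 differences of -0.06 with Smndc1 shRNA and -0.11 with Atrx shRNA, and the 16 without it 0.02 and -0.05. The ranges overlapped: -0.55 to 0.43 and -0.21 to 0.53 with Smndc1 shRNA, and -0.53 to 0.38 and -0.61 to 0.54 with Atrx shRNA. Under trended offsets the Smndc1 median with a core was 0.02, the opposite sign.

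A further 52 genes of the pathway, among them kinases, receptors of interferon gamma, DNA sensors and guanylate-binding proteins, had 143 regions in the same windows. In the TMM fit 0 of them were called in any comparison, with 8, 9 and 5 at an unadjusted p under 0.05 for Smndc1 shRNA, Atrx shRNA and the direct comparison (backgrounds 8.09%, 5.75% and 5.40%). With trended offsets 3 were called with Smndc1 shRNA (2.10%, background 1.11%), 0 with Atrx shRNA (background 0.253%) and 1 between the shRNAs (0.699%, background 0.564%). With the trended fit, a region in Znfx1, an RNA helicase gene, fell by 0.86 (SE 0.21, edgeR adjusted p = 0.0103). Its TMM-normalised level went from 23.9 ± 1.76 to 12.5 ± 3.27 CPM (SD, n = 3), and on that scale the groups did not overlap. An end region of the same gene fell by 0.42 in the trended fit (SE 0.11, edgeR adjusted p = 0.0190). A region at Irf2bp2, which encodes an IRF2-binding corepressor, rose by 0.53 (SE 0.14, edgeR adjusted p = 0.0210). Between the shRNAs a region at Herc6, the mouse ISG15 ligase, was lower with Smndc1 shRNA by a log2 difference of -0.88 (SE 0.23, edgeR adjusted p = 0.0343). In the TMM fit their adjusted p-values were 0.0610, 0.746, 0.673 and 0.222. Each of the 4 trended calls was lost on leaving out some single library: Smndc1 replicate 1 or empty vector replicate 1 or 3 for the Znfx1 body region (adjusted p up to 0.182), Smndc1 replicate 2 or 3 or empty vector replicate 2 or 3 for its end region (up to 0.130), Smndc1 replicate 1 or 2 or empty vector replicate 2 or 3 for Irf2bp2 (up to 0.214), and 6 of the 9 libraries for Herc6 (up to 0.504).

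The libraries held 5.29 to 8.15 M counts over all regions. Replicate 3 of every group had the lowest contrast: the strongest 10% of regions held 38.5% to 38.8% of its counts and 43.3% to 48.8% in the other 6. At 17 of the 40 member gene-end regions (42.5%) replicate 3 was the lowest library in all 3 groups, beside 53.9% of all gene-end regions, and at 3 (7.50%) after trended scaling. Summed over the 40 regions, replicate 3 had 819, 896 and 786 CPM in the control, Smndc1 and Atrx groups, while the remaining libraries had 967 to 1078. The alpha cell label was checked at marker genes: 8 of 10 alpha cell genes, Gcg among them, had an end region, beside 2 of 7 leukocyte, 1 of 4 fibroblast and 0 of 3 endothelial genes. A region anywhere in the window was found at 10 of 10, 6 of 7, 4 of 4 and 3 of 3 of them, and the strongest at endothelial Pecam1 (79.9 CPM per kb) and macrophage Cd68 (65.1) exceeded that of Gcg (52.3). Summed leukocyte end levels came from 2 regions, at Cd68 and Spi1. They were 28.0 to 35.4 CPM with empty vector, 34.4 to 40.7 with Smndc1 shRNA and 27.6 to 37.6 with Atrx shRNA. In the same order, the alpha cell end regions summed to 359 to 533, 449 to 650 and 401 to 647 CPM. The 1 fibroblast end region had 4.38 to 5.48, 4.74 to 8.23 and 3.89 to 5.15 CPM. No region was found at Cd3e. The part of leukocytes in the results was not tested.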

How the data were processed

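The authors deposited raw counts for 80827 consensus regions in 9 ATAC-seq libraries, whole numbers with no scaling, and the regions' positions on mm10 (GRCm38). The submitters' processing notes list MACS2 (2.2.7.1), Bowtie2 (2.4.4), bedtools (2.27.1), SAMtools and deepTools (3.5.1), without their roles. Whether reads or fragments were counted, and how regions were merged, is not given in the sources used here. Genes came from a RefSeq table of GRCm38.p6, the same build.

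The counts were fitted with edgeR 4.0.16 in R 4.3.3 (quasi-likelihood, robust, TMM, filterByExpr with minimum count 10, all 9 libraries, 1 coefficient per group); 482 regions fell below the filter and p-values were adjusted over 80345. Trended offsets are a loess curve (span 0.3) of each library's log count against the mean, used as offsets. Alternatives were DESeq2 1.42.0, RLE factors, no filter, 6 libraries, a replicate term and left-out libraries. The scripts were tested on simulated data, with and without an abundance trend. Tables used Python 3.11.15 and pandas 2.3.3.

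Named are regions with an adjusted p under 0.05 in either fit and, per direction and comparison, the lowest-p regions, 4 at gene ends and 2 elsewhere (mean log2 CPM at least 1). Members and lists were chosen with earlier results of these data known. P-values cover the spread between these libraries, and depth limits small differences at regions of a few counts. RNA of the shRNA targets was not analysed here, and open chromatin is no check of a knockdown.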

Additional observations from a re-analysis of the deposited data

How the results depend on the processing

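The count of called members moved from 0 for Smndc1 shRNA against empty vector to 2 with trended offsets (1.11% of all regions called), 1 at an adjusted p under 0.10 (0.345%) and 2 without replicate 3 of every group (0.771%; 2 with trended offsets as well, 1.28%). Leaving out single libraries gave 0 to 1 in the TMM fit (0.00124% to 0.755%) and 0 to 3 with trended offsets (0.295% to 1.49%), the latter chosen after seeing the data. With RLE factors, DESeq2, no filter, 6 libraries or unextended gene bodies the count was 0 in all 3 comparisons. These settings called at most 0.24% of all regions. For Atrx shRNA it was 0 under every setting run except a replicate block with trended offsets (1). Between the shRNAs it was 1 with trended offsets on leaving out replicate 2 of Smndc1 shRNA (Rsad2, 0.523% of all regions called). It was 0 on leaving out any library in the TMM fit (0.00124% to 0.133%).

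A replicate block (the replicate number as a term) called 3, 0 and 1 of the 96 members, and with trended offsets 8, 1 and 1. The 8 included the regions named in the bodies of Usp18 and Irf2, and the second end region of Irf2. The numbers are not known to pair the libraries: same-numbered deviations correlated from -0.04 to 0.42, and only some exceeded 0.1. Those of the replicate 3 libraries correlated from 0.31 to 0.42 in every pair of groups. Those of replicates 1 and 2 correlated from -0.04 to 0.25, and differently numbered libraries reached 0.30. The main fit holds no replicate term. Of all regions the block called 1.58%, 0.288% and 0.764%, and with trended offsets 2.64%, 0.996% and 1.42%.

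Over left-out libraries, the gene-end median ran from -0.0654 to 0.0849 for Smndc1 shRNA, from -0.156 to 0.0042 for Atrx shRNA and from 0.0522 to 0.215 between the shRNAs, so the first 2 changed sign. That of the other regions ran from 0.0118 to 0.0998, from -0.113 to 0.0292 and from 0.0295 to 0.156. Of 999 alternative values of the named regions, 964 kept their side of the threshold, 30 passed it and 5 reversed sign: the region upstream of Irf9 (-0.127, trended offsets without replicate 3 of every group), Oasl2 (-0.0094 without replicate 2 of Atrx shRNA, -0.0762 also with trended offsets, 0.948 at most over left-out libraries) and Ifnar1 (0.0217 without replicate 3 of Smndc1 shRNA, 0.0676 without replicate 1 of Atrx shRNA, -0.314 at least). The cause was not tested. The median standard error of the Smndc1 difference was 0.54 at the 26 member regions under 5 CPM, 0.33 at the 20 from 5 to 10 CPM and 0.24 at the 50 above.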
